A study of Mus musculus with 32 samples.

Results

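Bone morphogenetic proteins (BMPs) are secreted ligands that bind receptor kinases on the cell surface, which phosphorylate receptor-regulated Smad proteins and thereby switch on target genes. Among the best known targets are the Id genes, whose products bind and block basic helix-loop-helix transcription factors, and the inhibitory Smads, which feed back on the receptors. In the developing cortex, BMP signaling is known for its part in the choice between neuronal and glial fates, in dorsal patterning, and in neurite growth. The genes described here are 5 BMP ligands (Bmp2, Bmp4, Bmp5, Bmp6, and Bmp7), 3 Id response genes (Id1, Id2, and Id4), and 2 inhibitory Smads (Smad6 and Smad7), 10 of the 49671 genes in the deposited table. They were given as a named list. Bmp6 was chosen by a measured value, since it was listed as lowered after 5 d in these same libraries, and the other 9 genes were added around it. Differences of all 10 genes from untreated neurons after 5 d of either miRNA, and every 5 d value of Bmp6, are therefore given as descriptions. No p-value is given for them, and where they enter a count of genes past a threshold nothing is read from it.

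RNA-seq counts came from 32 libraries of cultured embryonic cortical neurons of wild type C57BL/6 mice. The neurons were left untreated or exposed to synthetic oligoribonucleotides with the sequence of miR-92a-1-5p or of miR-124-5p, or to Mut.oligo, a mutated form of let-7b that served as sequence control. Where 3 values follow each other without names, they are those of miR-92a-1-5p, then miR-124-5p, then Mut.oligo. For each of the 4 conditions there were 4 libraries at 6 h and 4 at 5 d, which the labels call biological replicates; whether these were separate cultures or animals is not stated for each, so that the p-values measure the spread between these libraries. Oligoribonucleotides were added to the medium at the same mass concentration, and untreated neurons received none. The labels also name an experiment batch for each library, with 7 batches at 6 h and 6 at 5 d. No batch holds libraries of both time points, so that time and batch cannot be told apart. Libraries held 24514090 to 73626029 counts, and a count of 3 corresponds to 0.122 counts per 1000000 counts of the library (CPM) in the smallest and to 0.0407 CPM in the largest library. The 10 neuronal marker genes summed to between 6114 and 7908 CPM in every library, but 10 markers of astrocytes and radial glia reached 826 to 1748 CPM at 6 h and 2281 to 4143 CPM at 5 d, and none of the cell type markers was at 0 throughout a group. The cultures thus held transcripts of cells other than neurons. In such bulk samples, fewer cells of a type and less RNA per cell cannot be told apart.

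Of the oligoribonucleotides, only miR-92a-1-5p was found in the sequence reference used here (RefSeq, GRCm38.p6, chr14:115044437-115044459, plus strand). Matches to miR-124-5p and Mut.oligo were not sought. The mature sequence of miR-92a-1-5p is shown with its seed, bases 2 to 8, in capitals. Below it stand the only 3 stretches in the 3′ UTRs of the 10 genes that hold the 7 bases complementary to this seed (CCCAACC, in capitals), taken from the longest coding transcript of each gene in GENCODE M21. They are shown because they are the places where 1 of the added sequences could pair through its seed with transcripts of the list.
miR-92a-1-5p: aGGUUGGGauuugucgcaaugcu
Bmp6: tcgcctccCCCAACCccgcccgg
Bmp7: ctcacctcCCCAACCggaagcat
Smad6: cagcgtccCCCAACCtctggggg
On GRCm38, the 7 bases lie at chr13:38499355-38499361 (plus strand) in Bmp6, at chr2:172869998-172870004 (minus strand) in Bmp7, and at chr9:63953487-63953493 (minus strand) in Smad6, starting 287, 133, and 31 bases after the stop codon. Of 20957 genes searched in the same way, 1867 (8.91%) held this run of bases in the 3′ UTR, which had a median length of 938 bases. The 3′ UTRs of the 10 genes ranged from 339 bases in Bmp4 to 3093 bases in Id4. A match describes the letters only and is no evidence that the site is bound.

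The 10 genes spanned a wide range of levels. Expressed as CPM per kilobase of exon, to allow levels of different genes to be compared, the median over the 32 libraries was highest for Id2 with 49.7, followed by Id4 with 11.3 and Id1 with 3.08. Every library had more Id2 than any library had Id4, and more Id4 than any had Id1. Smad7 (median 1.96) and Bmp7 (median 1.93) were next, and their ranges of 1.24 to 2.68 and 1.26 to 3.18 overlapped with each other and with the lower end of Id1. Bmp6 and Bmp2 followed with medians of 0.798 and 0.794. Bmp4 (0.168), Smad6 (0.153), and Bmp5 (0.0401) were lowest. Bmp7 was thus the most abundant ligand mRNA at both times. Bmp4 had 4 to 42 counts per library, Smad6 4 to 60, and Bmp5 0 to 29, and differences between groups in these 3 genes rest on few reads.

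**Figure D1:**
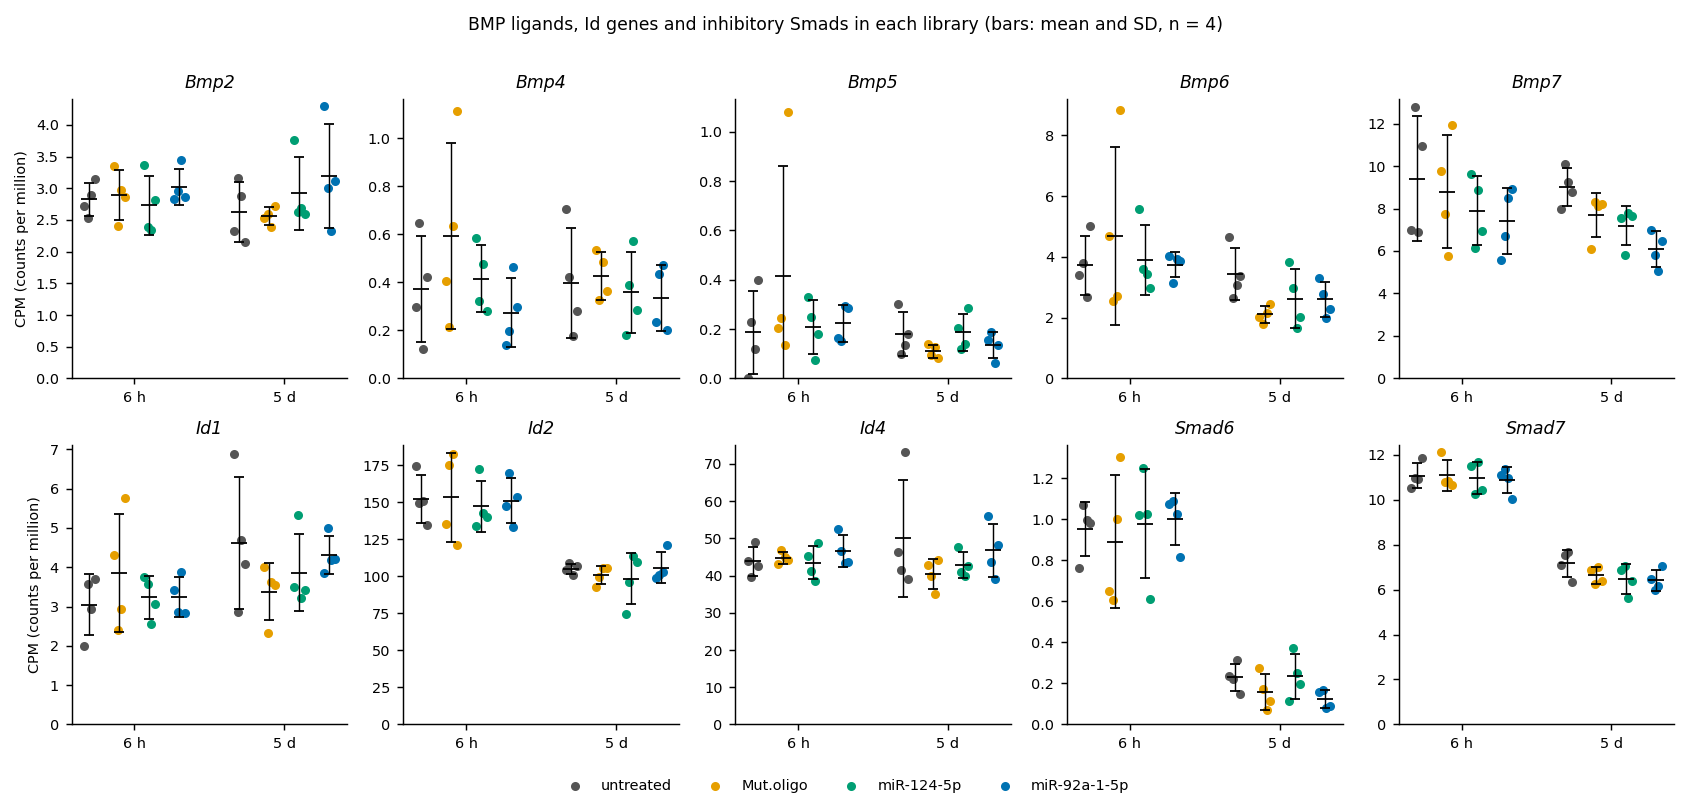
CPM (vertical axes, starting at 0, with a scale of its own for each gene) of each of the 10 genes in the 4 libraries of each group at 6 h and 5 d. Points are libraries in replicate order, and black bars give the mean and SD of 4 libraries, cut at 0 for Bmp5. Smad6 and Smad7 had no 5 d library as high as any 6 h library, while untreated and exposed libraries overlapped for all 10 genes at 6 h.

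Bmp6 (ENSMUSG00000039004, chr13:38345107-38500302 of GRCm38, plus strand) encodes a BMP ligand best known as a regulator of hepatic iron sensing and of bone formation. At 6 h, its expression in untreated neurons was 3.42, 3.80, 2.69, and 5.01 CPM in replicates 1 to 4. After miR-92a-1-5p exposure it was 4.04, 3.13, 3.93, and 3.86 CPM, and after miR-124-5p exposure 5.59, 3.61, 3.42, and 2.97 CPM. These groups overlapped. In the Mut.oligo group it was 4.69, 2.55, 2.71, and 8.85 CPM, where replicate 4, the only library of its experiment batch, lay far above the others. The same library had the highest values of its group for Bmp4 (1.12 CPM), Bmp5 (1.08 CPM), Bmp7 (11.9 CPM), Id1 (5.76 CPM), and Smad6 (1.30 CPM). Its 10 markers of fibroblast, meningeal, and mural cells summed to 311 CPM, against 103 to 205 CPM in the other 3 libraries of the group and 41.1 to 192 CPM in untreated neurons, and its 6 choroid plexus markers to 244 CPM against 75.7 to 223 CPM in the other 3. It was also highest of its group for markers of proliferating cells (354 CPM against 126 to 236 CPM) and of endothelial cells (11.4 against 4.31 to 7.26 CPM). The same held for astrocytes and radial glia (1748 against 829 to 1539 CPM) and microglia (19.5 against 10.1 to 18.1 CPM), but not for the oligodendrocyte lineage (244 against 113 to 294 CPM). All 10 of the former markers and 5 of the latter 6 had positive log2 fold changes in the Mut.oligo group at 6 h (median 0.58 and 0.69), and with batch in the model the medians were 0.11 and 0.07, with 2 of 10 and 2 of 6 lower. The part of these markers in the level of the BMP ligands was not tested.

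After 5 d, Bmp6 was 4.66, 2.65, 3.09, and 3.37 CPM in untreated neurons. It was 3.31, 2.79, 2.00, and 2.29 CPM after miR-92a-1-5p and 3.84, 2.97, 1.68, and 2.03 CPM after miR-124-5p exposure, so that both groups overlapped with untreated neurons. After Mut.oligo exposure it was 2.04, 1.80, 2.16, and 2.45 CPM, and all 4 libraries lay below the lowest untreated one. The log2 fold change was -0.39 for miR-92a-1-5p (standard error, SE, 0.22), -0.39 for miR-124-5p (SE 0.22), and -0.68 for Mut.oligo (SE 0.22) without a covariate. With the batch in the model, these values were -0.64 (SE 0.15), -0.66 (SE 0.15), and -0.68 (SE 0.14). Compared to the untreated library of the same batch, Bmp6 was lower in 2 of 2 batches after miR-92a-1-5p, by 0.72 and 0.55 on the log2 scale, in 2 of 2 after miR-124-5p, by 0.63 and 0.73, and in 3 of 3 after Mut.oligo, by 1.18, 0.52, and 0.46. The 3 comparisons share the untreated libraries, of which replicate 1 was the highest. Without it, the log2 fold changes in the fit without a covariate were -0.21, -0.21, and -0.50. The lower Bmp6 level at 5 d was thus seen with the control oligoribonucleotide as well as with both miRNAs.

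Sums of cell type markers were also compared at 5 d. In edgeR without a covariate, 0 of these markers had an adjusted p under 0.05 with a log2 fold change beyond 0.5. With batch in the model, 6, 0, and 0 proliferation markers did so, and 4, 2, and 1 of the oligodendrocyte lineage, all lower. So did 1 endothelial marker in each comparison and 2, 1, and 1 markers of fibroblast, meningeal, and mural cells, all lower. Of all genes, 0.352%, 0.0259%, and 0.0466% passed in these fits. Each of these lists holds at least 1 gene that the study listed as lowered at 5 d in the same libraries. Their calls, sums, and counts of lower markers are therefore descriptions only. Counts of lower markers below are from the fit without a covariate. Markers of proliferating cells summed to 72.01 to 77.3 CPM in untreated neurons at 5 d and to 27.3 to 64.8 CPM over the exposed groups, with all 6 markers lower in each of the 3 comparisons. Markers of the oligodendrocyte lineage summed to 168 to 206 CPM in untreated and 86.8 to 196 CPM in exposed neurons, with 7, 7, and 8 of 8 markers lower. The endothelial markers summed to 6.32 to 11.7 CPM in untreated and to 3.99 to 6.87 CPM in exposed neurons, with 6, 3, and 5 of 8 lower, and the markers of fibroblast, meningeal, and mural cells to 78.6 to 145 CPM and 57.0 to 116 CPM, with 8, 7, and 9 of 10 lower. The 10 markers of astrocytes and radial glia summed to 2534 to 4143 CPM in untreated and to 2281 to 3464 CPM in exposed neurons, with 9, 9, and 10 of 10 lower and median log2 fold changes of -0.22, -0.20, and -0.29. Other lists did not fall together. Of the microglia markers 4, 2, and 8 of 8 were lower (median log2 fold changes 0.0049, 0.14, and -0.13). Of the choroid plexus markers 5, 1, and 1 of 6 were lower (medians -0.19, 0.15, and 0.31). Neuronal markers kept a median log2 fold change between 0.0046 and 0.055. The part of these markers in the Bmp6 values was not tested.

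Bmp7 (ENSMUSG00000008999, chr2:172868012-172940321, minus strand) encodes a ligand known for its role in kidney, eye, and dorsal forebrain development. At 6 h it was 6.97, 12.8, 6.91, and 10.9 CPM in untreated neurons and 5.58, 6.70, 8.50, and 8.90 CPM with miR-92a-1-5p. The log2 difference of -0.34 (SE 0.22) was within the spread of the replicates (adjusted p = 0.999 by the quasi-likelihood test of edgeR, Benjamini-Hochberg). It was lower in 4 of 4 shared batches, by 0.04 to 0.51 on the log2 scale, and with batch in the model its log2 fold change was -0.33 (SE 0.0918, adjusted p = 0.117 from edgeR, Benjamini-Hochberg). At 5 d, Bmp7 was 7.98, 10.1, 9.24, and 8.77 CPM in untreated neurons. With miR-92a-1-5p it was 7.01, 5.82, 5.05, and 6.48 CPM, and after miR-124-5p exposure 7.54, 5.83, 7.78, and 7.64 CPM, in both cases with every library below the lowest untreated one. After Mut.oligo exposure it was 6.11, 8.33, 8.12, and 8.20 CPM, which overlapped with untreated neurons. The log2 fold changes at 5 d were -0.55 (SE 0.14) for miR-92a-1-5p, -0.32 (SE 0.14) for miR-124-5p, and -0.20 (SE 0.14, adjusted p = 0.999 from edgeR, Benjamini-Hochberg) for Mut.oligo. Within shared batches, Bmp7 was lower after all 3 oligoribonucleotides, in 2 of 2, 2 of 2, and 3 of 3 batches.

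Bmp2, a ligand that also drives bone formation, had the smallest ratio of highest to lowest library among the ligands (2.00), with 2.35 to 3.44 CPM at 6 h and 2.15 to 4.31 CPM at 5 d over all libraries of a time point. The 5 d log2 fold changes were 0.30 (SE 0.18) after miR-92a-1-5p, 0.16 (SE 0.18) after miR-124-5p, and -0.0014 (SE 0.18) after Mut.oligo, and groups overlapped in all of them. Bmp4, a ligand with a central role in dorsal-ventral patterning, had between 0.121 and 1.12 CPM at 6 h and between 0.176 and 0.706 CPM at 5 d, with no group apart from the others. Bmp5, a ligand of the Bmp7 subfamily, was at 0 in replicate 1 of untreated neurons at 6 h, which allows up to 3 counts or 0.0995 CPM at the depth of that library (counting error only), and reached at most 1.08 CPM.

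Id1 (ENSMUSG00000042745, chr2:152736251-152737410, plus strand) is the Id gene most commonly used as a readout of BMP and Smad activity. At 6 h it was 1.99, 3.57, 2.93, and 3.71 CPM in untreated neurons and between 2.40 and 5.76 CPM over the 12 exposed libraries. At 5 d it was 6.87, 2.86, 4.69, and 4.08 CPM in untreated, 4.00, 2.33, 3.63, and 3.55 CPM in Mut.oligo, 3.50, 5.34, 3.21, and 3.41 CPM in miR-124-5p, and 3.86, 5.01, 4.19, and 4.21 CPM in miR-92a-1-5p exposed neurons. All groups overlapped. The log2 fold change of Mut.oligo at 5 d was -0.42 (SE 0.22, adjusted p = 0.999 from edgeR, Benjamini-Hochberg). It was -0.41 with batch in the model (SE 0.117, adjusted p = 0.676 from edgeR, Benjamini-Hochberg), and Id1 was lower in 3 of 3 shared batches, with log2 differences between -0.79 and -0.20. For miR-124-5p and then miR-92a-1-5p, the 5 d log2 fold changes were -0.24 (SE 0.22) and -0.07 (SE 0.22). Untreated replicate 1 had the highest Id1 level at 5 d, and without it the log2 fold change was 0.18 for miR-92a-1-5p, 0.01 for miR-124-5p, and -0.17 for Mut.oligo.

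Id2 (ENSMUSG00000020644, chr12:25093799-25097140, minus strand) and Id4 (ENSMUSG00000021379, chr13:48261228-48266026, plus strand) are expressed by cortical neurons and progenitors themselves. The log2 fold changes to untreated neurons lay between -0.08 and 0.03 for Id2 and between -0.26 and 0.08 for Id4 over the 6 comparisons, all smaller than 2 standard errors. The lowest value of Id4, that of Mut.oligo at 5 d, became -0.02 (SE 0.0763) with batch in the model. In replicate 3 of untreated neurons at 5 d, the only library of its batch, Id4 was 73.2 CPM, against 39.1 to 46.4 CPM in the other 3.

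Smad7 blocks the receptors of both BMP and transforming growth factor beta signaling, whereas Smad6 acts mainly on BMP receptors. Smad7 stayed within 10.04 to 12.1 CPM over all 16 libraries at 6 h and within 5.60 to 7.68 CPM at 5 d, and its log2 fold changes to untreated neurons were between -0.14 and 0.0009. Smad6 was 0.763, 1.07, 0.996, and 0.981 CPM in untreated neurons at 6 h and 0.235, 0.221, 0.313, and 0.149 CPM at 5 d. After 5 d of miR-92a-1-5p it was 0.158, 0.166, 0.0825, and 0.0891 CPM, from 4 to 8 counts per library. Its log2 fold change of -0.85 (SE 0.46) in that comparison was -0.36 (SE 0.48) with batch in the model.

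**Figure D2:**
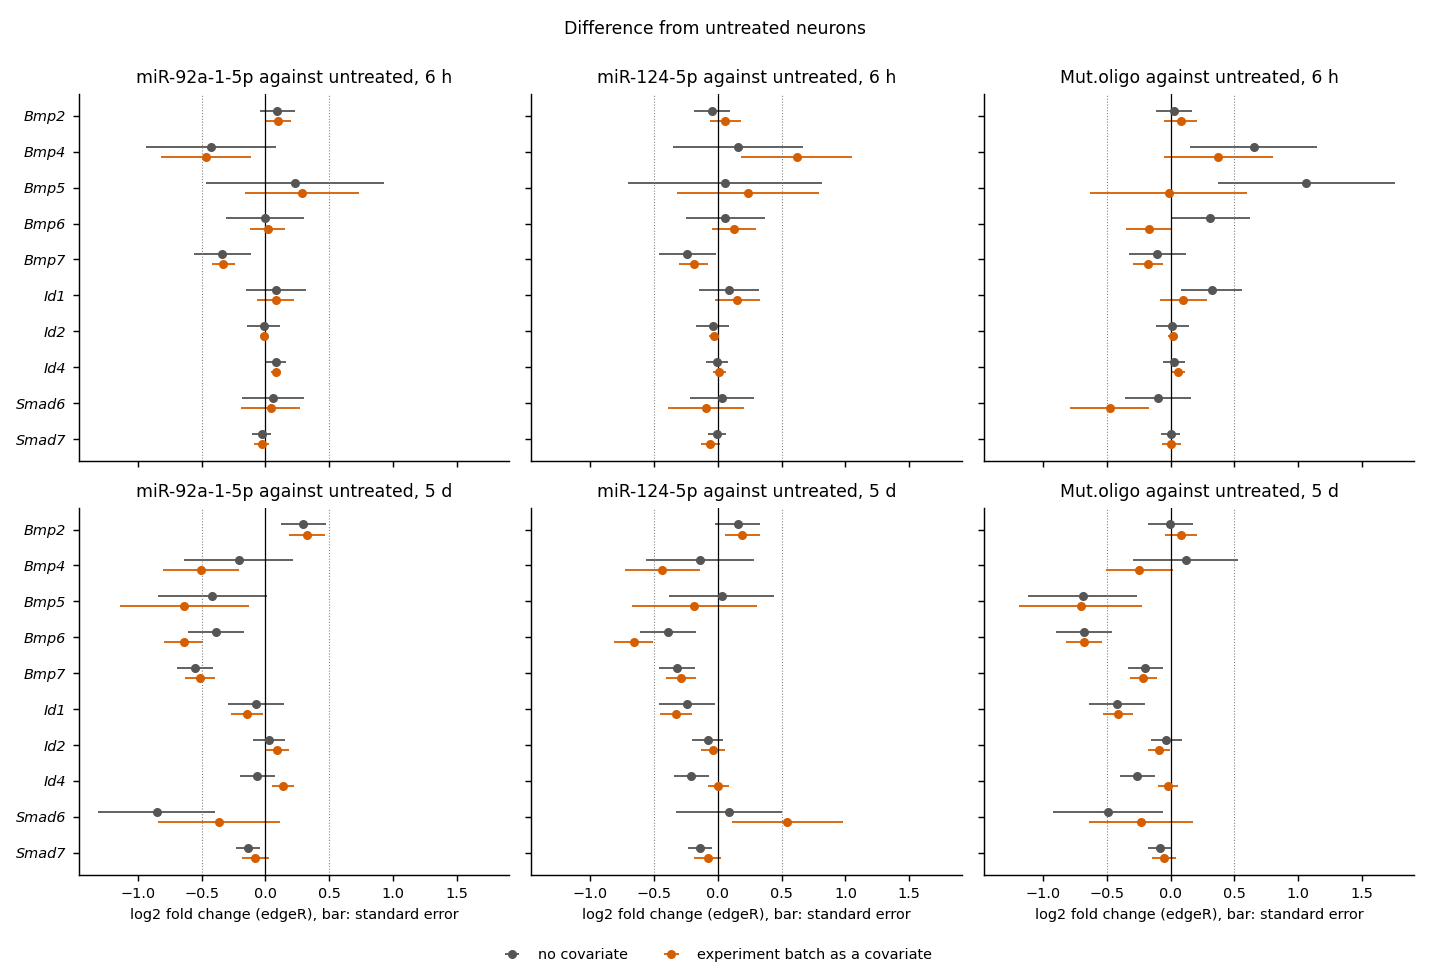
Log2 fold changes to untreated neurons (horizontal axes, shared) for the 10 genes in the 6 comparisons, with standard errors (SE) as bars, from edgeR without a covariate (grey) and with batch in the model (orange). Dotted lines mark log2 fold changes of -0.5 and 0.5. Bmp6 lay between -0.39 and -0.68 in all 3 comparisons at 5 d in both fits, and at 6 h its value for Mut.oligo changed sign between the fits (0.31 and -0.17).

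A gene was counted as past the threshold when its adjusted p was under 0.05 and its log2 fold change exceeded 0.5 upward or downward. At 6 h, 0 of the 10 genes passed in any of the 3 comparisons to untreated neurons with edgeR without a covariate, and 0 of 10 had an unadjusted p under 0.05 in any of them. The share of all 18755 genes tested that passed was 0% in each, and the share with an unadjusted p under 0.05 was 4.75%, 4.54%, and 9.49%. With batch in the model, again 0 of 10 passed, against 0.208%, 0%, and 0.0213% of all genes, and 1 of 10, Bmp7 after miR-92a-1-5p, had an unadjusted p under 0.05 (13.4%, 5.79%, and 8.47% of all genes). DESeq2 called 0 of 10 in the 3 comparisons, without the batch (0%, 0%, and 0.0533% of all genes) and with it (0.139%, 0.00533%, and 0.0373%). Of the 10 genes, 0 had groups that did not overlap at 6 h, against 3.57% (miR-92a-1-5p), 3.34% (miR-124-5p), and 4.43% (Mut.oligo) of all genes. The median log2 fold change of the 10 genes was 0.03, 0.01, and 0.03, and that of all genes 0.0055, -0.0033, and -0.00036.

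At 5 d, 0 of the 10 genes passed with edgeR without a covariate, while 0.00517%, 0%, and 0% of the 19333 genes tested did so. With batch in the model, 0 of 10 passed in each, against 0.352%, 0.0259%, and 0.0466% of all genes. Among the 9 genes other than Bmp6, 0 had an unadjusted p under 0.05 for Mut.oligo without the batch (2.79% of all genes) and 1, Id1, with it (4.2%). DESeq2 with batch in the model called Bmp6 and Bmp7 for miR-92a-1-5p (0.61% of all genes), 0 of 10 for miR-124-5p (0.0879%), and Bmp6 for Mut.oligo (0.0983%). Nothing is read from these calls for Bmp6, nor from those for the miRNAs, since the list was chosen with these contrasts known. DESeq2 without the batch called 0 of 10 in each, against 0.166%, 0%, and 0.0155% of all genes. The groups did not overlap for 1 of 10 genes in each comparison, Bmp7 for each miRNA and Bmp6 for Mut.oligo, where the shares of all genes were 2.56%, 1.44%, and 1.98%. Of the 10 genes, 8, 7, and 9 had negative log2 fold changes at 5 d, against 50.5%, 49.0%, and 48.9% of all genes. The 9 for Mut.oligo include Bmp2, which was nearly unchanged. Medians were -0.17, -0.14, and -0.23 where those of all genes were -0.0013, 0.0027, and 0.0031. These counts and medians are descriptions, since the list holds Bmp6 and was chosen with the miRNA contrasts known.

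**Figure D3:**
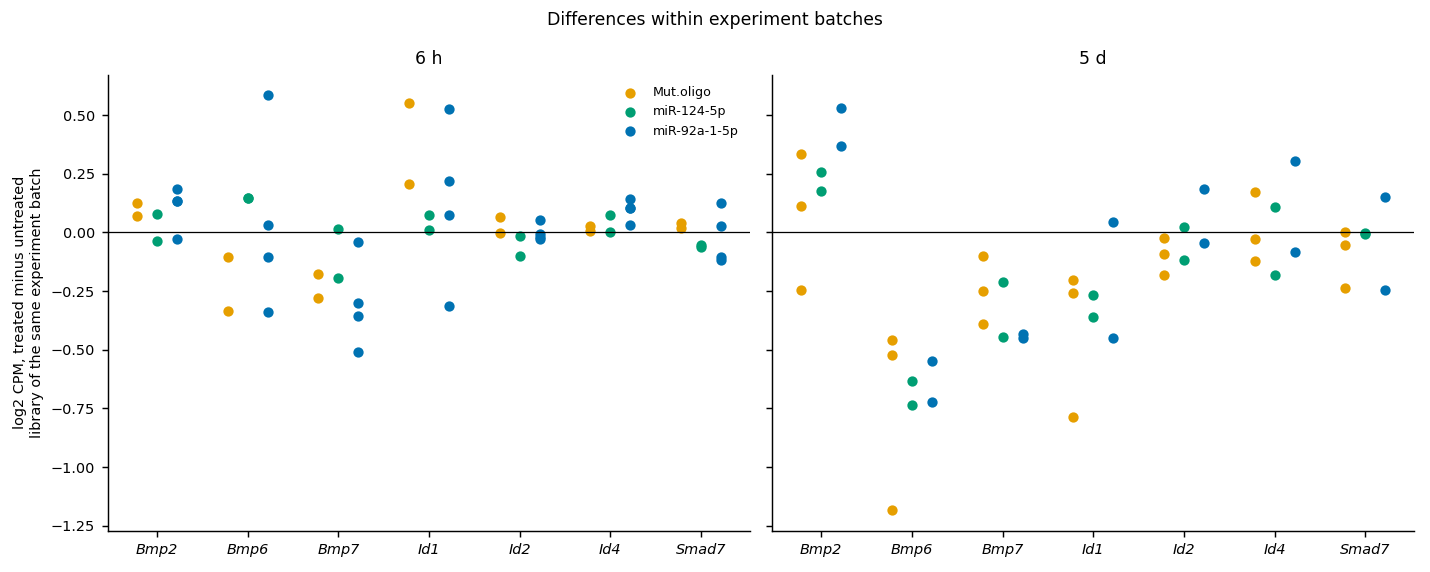
Log2 CPM of each exposed library minus that of the untreated library of the same experiment batch (vertical axis, shared), for 7 of the 10 genes at 6 h and 5 d, with 1 point per shared batch and colors for the oligoribonucleotide. Bmp4, Bmp5, and Smad6, with few counts, are left out. At 5 d, all 7 points of Bmp6 lay between -1.18 and -0.46 and all 7 points of Bmp7 below 0.

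Whether the miRNAs differed from the control oligoribonucleotide was examined by direct comparison to Mut.oligo. With edgeR, 0 of the 10 genes at 6 h and 0 of the 9 genes other than Bmp6 at 5 d passed for either miRNA, without a covariate (0%, 0%, 0%, and 0% of all genes, miR-92a-1-5p before miR-124-5p and 6 h before 5 d) and with the batch (0%, 0%, 0.0103%, and 0%). Without a covariate, an unadjusted p under 0.05 was seen with miR-92a-1-5p for 1 gene at each time, Bmp4 at 6 h and Bmp7 at 5 d (2.12% and 1.98% of all genes), and with miR-124-5p for 0 (3.58% and 1.68%). DESeq2 called 0 of these genes, without the batch (0% of all genes in each) and with it (0.00533% and 0.0672% for miR-92a-1-5p at 6 h and 5 d, and 0% for miR-124-5p at both). For Bmp6 at 5 d the log2 fold change was 0.29 for both miRNAs (SE 0.22 each), and 0.04 and 0.02 (SE 0.15 each) with batch in the model. Bmp7 was lower after miR-92a-1-5p than after Mut.oligo at 5 d, with a log2 fold change of -0.35 (SE 0.14) and differences within batches of -0.67 to -0.06 in 3 of 3 batches, which was not past the threshold (adjusted p = 1.00, and 0.548 with the batch, from edgeR with Benjamini-Hochberg adjustment). Id1 showed the opposite sign, 0.35 (SE 0.22, adjusted p = 1.00 from edgeR without a covariate, Benjamini-Hochberg), and was higher in 3 of 3 batches by 0.22 to 0.34.

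The difference between Mut.oligo and untreated neurons was also compared between the time points for the 9 genes other than Bmp6. No gene passed, with an adjusted p of 0.857 or higher (edgeR, Benjamini-Hochberg), and 2 of 9 had an unadjusted p under 0.05, where 0% and 5.55% of all 20425 genes did so. The log2 fold change of Id1 was 0.32 at 6 h and -0.42 at 5 d and that of Bmp5 1.07 and -0.69, differences of -0.72 (SE 0.33) and -1.74 (SE 0.84) that did not exceed the spread after adjustment. Without Mut.oligo replicate 4, the values at 6 h were 0.08 for Id1 and 0.02 for Bmp5. Those at 5 d were -0.17 and -0.33 without untreated replicate 1. Within shared batches at 6 h, which leave that Mut.oligo library out, Id1 was higher in 2 of 2, by 0.21 and 0.55. Bmp5 was lower in 1 (-0.84) and higher in 1 (1.97), the latter against the untreated library without counts.

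Larger differences were found between the 2 times of culture. In untreated neurons, 4 of the 10 genes differed between 5 d and 6 h, 1 up and 3 down, against 33.5% of the 20425 genes tested (19.1% up and 14.3% down), so that the share of the 10 genes was near that of all genes. Smad6 (ENSMUSG00000036867, chr9:63953076-64022059, minus strand) was lower by a log2 fold change of -2.07 (SE 0.33, adjusted p = 3.7e-06), which is 0.239 of its 6 h level, and Smad7 by -0.64 (SE 0.0804, adjusted p = 8.3e-08; edgeR, Benjamini-Hochberg). These calls were kept in every alternative that could test them. The 16 libraries of 6 h and the 16 of 5 d did not overlap for Smad6 (0.608 to 1.30 and 0.0719 to 0.374 CPM) or Smad7. Id2 was lower by -0.54 (SE 0.14, adjusted p = 0.0012 from edgeR, Benjamini-Hochberg), and fell to between -0.42 and -0.50, within the minimum fold change, when untreated replicate 1 of 6 h or replicate 1 or 3 of 5 d was left out. Id1 rose by 0.58 (SE 0.24, adjusted p = 0.0361 from edgeR, Benjamini-Hochberg), but was not past the threshold without untreated replicate 1 (0.47) or 3 (0.60) of 6 h, without replicate 1 of 5 d (0.37), with the replicate block (0.57, adjusted p = 0.0505), or in a fit of the 2 groups alone (0.57, adjusted p = 0.085). Of the ligands tested, Bmp2, Bmp4, Bmp5, and Bmp7 had log2 fold changes between -0.12 and 0.10 with none past the threshold, and Bmp6 had -0.13 (SE 0.27). In the same comparison, 7 of 10 markers of astrocytes and radial glia were past the threshold upward and all 6 proliferation markers downward. Of 10 neuronal markers, 2 passed upward and 1 downward, and of 10 markers of fibroblast, meningeal, and mural cells 3 upward and 1 downward. Of the 8 oligodendrocyte lineage markers 3 passed downward, and 2 of 8 microglia and 1 of 8 endothelial markers upward. Of 6 choroid plexus markers, 0 passed. The part of these cells in the changes of Id1, Id2, Smad6, and Smad7 was not tested.

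**Figure D4:**
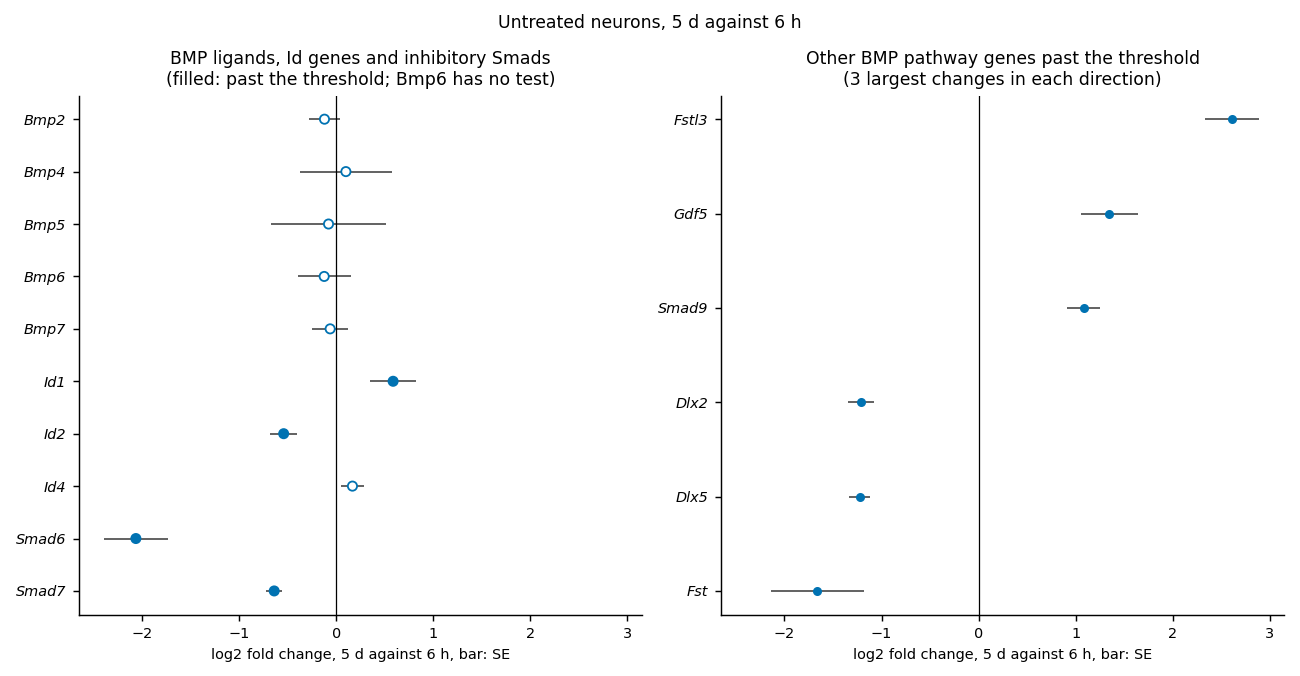
Log2 fold changes of untreated neurons at 5 d against 6 h (horizontal axes, bars give standard errors) for the 10 genes (left; filled circles are past the threshold) and for the other BMP pathway genes with the 3 largest rises and the 3 largest falls past the threshold (right). Smad6 had the lowest value on the left (-2.07), and Fstl3 the highest on the right (2.61).

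To place the 10 genes in their pathway, 58 other genes were listed by role, namely further ligands, receptors and co-receptors, Smad transducers, secreted antagonists, and other response genes. In the comparisons to untreated neurons, 52 of the 58 could be tested at 6 h and 53 at 5 d. None passed with edgeR, with or without the batch. At an unadjusted p under 0.05 without the batch there were 4 (miR-92a-1-5p), 1 (miR-124-5p), and 5 (Mut.oligo) of 52 at 6 h, and 2, 1, and 3 of 53 at 5 d. The shares of all genes were 4.75%, 4.54%, and 9.49% at 6 h and 3.63%, 2.6%, and 2.79% at 5 d. The median log2 fold changes were between -0.03 and 0.02. DESeq2 with the batch called Id3, the Id gene outside the list of 10, after 5 d of Mut.oligo, with -0.65 (SE 0.12, adjusted p = 0.00016 from DESeq2, Benjamini-Hochberg; 0.0616 from edgeR with the batch). The same fit called Id3 higher after miR-92a-1-5p than after Mut.oligo at 5 d, with 0.63 (SE 0.12, adjusted p = 0.00028 from DESeq2, Benjamini-Hochberg; 0.125 from edgeR with the batch), and it was higher in 3 of 3 batches. Of all genes, 0.0983% and 0.0672% passed in these 2 DESeq2 comparisons. Id3 was singled out after its values were seen, so that its adjusted p-values are descriptions only. It was 9.15 ± 1.58 CPM in untreated, 5.81 ± 1.05 CPM in Mut.oligo, 6.22 ± 1.69 CPM in miR-124-5p, and 8.37 ± 2.55 CPM in miR-92a-1-5p exposed neurons at 5 d (SD, n = 4 each), and within batches it was lower after Mut.oligo in 3 of 3 and after miR-124-5p in 2 of 2.

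Between the times of culture, 19 of 54 tested pathway genes (35.2%) passed, 13 up and 6 down, a share again near the 33.5% of all genes. By role, 6 of 12 receptors and co-receptors passed, 5 of them up, among them the BMP receptor genes Bmpr1a (0.58), Bmpr1b (0.66), and Bmpr2 (0.52), whereas Acvr1, a further BMP receptor, fell by 0.60 on the log2 scale. Of the antagonists, 7 of 14 passed, 5 up and 2 down. The 3 largest rises were those of Fstl3, a follistatin-like antagonist, with 2.61 (SE 0.28), of the ligand Gdf5 with 1.35 (SE 0.29), and of the receptor-regulated Smad9 with 1.08 (SE 0.17), which went from 2.67 ± 0.376 to 5.71 ± 0.820 CPM (SD, n = 4 each). The 3 largest falls were those of Fst, which encodes follistatin, with -1.66 (SE 0.48), and of Dlx5 and Dlx2, homeobox genes of inhibitory interneurons that respond to BMP in other tissues, with -1.22 (SE 0.11) and -1.21 (SE 0.13).

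The genes whose levels ran most alike with Bmp6 and Id1 were sought over all 32 libraries, after the mean of each time point was subtracted, among 13930 genes with at least 10 counts in every library. The libraries share batches and cell composition, and the correlations are descriptions. For Bmp6, the 5 highest Pearson correlations of log2 CPM were those of Rfx2 (0.80), Plin3 (0.79), Naprt (0.79), Efemp2 (0.79), and Cthrc1 (0.78). For Id1, they were those of Il13ra1 (0.83), Id3 (0.82), B4galt1 (0.77), Lcat (0.76), and A2m (0.75). Bmp6 and Id1 had a correlation of 0.68 with each other, at rank 200 from Bmp6 and rank 50 from Id1, and Bmp6 had one of -0.60 with Id2. No other of the 10 genes with enough counts reached 0.5 in either direction with Bmp6 or Id1.

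At 6 h alone, Bmp6 and Id1 had a Pearson r of 0.78 and a Spearman rho of 0.75 over the 16 libraries. These are given as descriptions with no test, since the 16 libraries are among the 32 searched above and libraries of 1 batch resemble each other. Without the 2 libraries farthest from the median of Bmp6, r was 0.60. After the mean of each experiment batch was subtracted, r was 0.20 over the 14 libraries in shared batches. This value leaves out the 2 libraries alone in their batch, among them Mut.oligo replicate 4 with the highest Bmp6 level. It therefore cannot be set directly against 0.78. At 5 d, r was 0.57 and rho 0.49 over 16 libraries, and r was 0.27 without the 2 libraries farthest from the median of Bmp6. After subtraction of the batch means, which leaves differences between treatments in place, r at 5 d was 0.82 over 15 libraries. After subtraction of the group means instead, r was 0.47 at 5 d and 0.78 at 6 h.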

How the data were processed

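Per the labels and the methods of the study, the authors mapped stranded mRNA reads to GRCm38 with STAR, counted reads on exons with featureCounts of the Subread package, and deposited raw counts per gene, without normalization, for 32 libraries; 0 columns remained unmapped. Genes reaching 5 counts in 3 or more libraries of a time point were fitted with edgeR 4.0.16 (R 4.3.3; TMM, quasi-likelihood test, all 4 groups of a time point, no covariate). All 32 libraries entered the comparison of times. P-values were adjusted over all genes tested (Benjamini-Hochberg). Log2 CPM used a prior count of 2. Symbols and coordinates came from GENCODE M21 (GRCm38). Differences within experiment batches used libraries of the same labelled batch.

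The 10 genes, the gene lists, and the tests were chosen with earlier results of these data known. Named are the 10 genes, pathway genes past the threshold against untreated neurons in edgeR (of which there were 0), the 3 largest changes per direction between times, and the 5 genes most correlated with Bmp6 and Id1. Outside these rules, Id3 and the BMP receptor genes Bmpr1a, Bmpr1b, Bmpr2, and Acvr1 were also named, with their values known. Alternatives were a model term for the experiment batch or for the replicate number, DESeq2 1.42.0 (with the batch and without), RLE size factors, a fit of unfiltered genes, a minimum of 10 counts per gene in each library, calls by adjusted p alone, the 2 compared groups alone, and leaving out each replicate. A result for 1 pathway gene is not reported here. The fitting code was tested on simulated data. Replicates of a group were checked for identical libraries, and none of 48 pairs agreed within sampling noise.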

Additional observations from a re-analysis of the deposited data

Results flagged for a closer look

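Among 80 groups of 4 libraries (10 genes in 8 groups), 7 held a library whose gap to the nearest other exceeded Dixon's 95% limit, where chance flags about 1 in 20, or 4 of 80. High libraries were replicate 1 of miR-124-5p at 5 d for Bmp2 (3.77 CPM, the others 2.60 to 2.69), replicate 4 of Mut.oligo at 6 h for Bmp5 (1.08 CPM, the others 0.134 to 0.243), replicate 2 of miR-124-5p at 5 d for Id1 (5.34 CPM, the others 3.21 to 3.50), replicate 4 of miR-92a-1-5p at 5 d for Id2 (121.4 CPM, the others 98.7 to 102.6), and replicate 1 of Mut.oligo at 6 h for Smad7 (12.1 CPM, the others 10.6 to 10.8). Low libraries were both for Bmp7 at 5 d, replicate 1 of Mut.oligo (6.11 CPM, the others 8.12 to 8.33) and replicate 2 of miR-124-5p (5.83 CPM, the others 7.54 to 7.78). These 2 libraries share an experiment batch with replicate 1 of untreated neurons, which had the lowest Bmp7 level (7.98 CPM) and the highest Bmp6 level (4.66 CPM) of its group.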

How the results depend on the processing

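Of 832 values recomputed under other settings, 808 were classed as unchanged, as were 868 of 880 with 1 replicate left out. These classes do not count every change of sign. Against untreated neurons at 5 d, Bmp4 after Mut.oligo ranged from -0.24 to 0.12 over the settings. With replicates left out, Bmp2 after Mut.oligo at 5 d ranged from -0.084 to 0.12, and Id1 after miR-92a-1-5p at 5 d from -0.23 to 0.18. With DESeq2 and batch in the model, 2 of the 10 genes were called for miR-92a-1-5p and 1 for Mut.oligo at 5 d, and 1 other pathway gene for Mut.oligo at 5 d; DESeq2 without the batch called 1 other pathway gene for Mut.oligo at 6 h. Without single replicates, 2 to 4 of the 10 genes were called between the times. For Mut.oligo against untreated neurons at 6 h, Bmp6 changed sign with the batch (-0.17; -0.175 with DESeq2), as did Bmp5 (-0.016), and Bmp6 was -0.18 to 0.52 with replicates left out. Against Mut.oligo at 6 h, values with the batch, and then with DESeq2 and the batch, turned to 0.30 and 0.26 for Bmp5 and 0.19 and 0.21 for Bmp6 after miR-92a-1-5p, and to 0.24 and 0.28 for Bmp4, 0.25 and 0.18 for Bmp5, and 0.30 and 0.30 for Bmp6 after miR-124-5p. With replicates left out, these ranged from -1.12 to 0.21 for Bmp5 and -0.52 to 0.17 for Bmp6 after miR-92a-1-5p, and from -1.31 to 0.027 and -0.46 to 0.23 after miR-124-5p. Each positive end, and the -0.18 of Bmp6, came from leaving out Mut.oligo replicate 4; the batch fit takes no information from that library.

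Deviations from the group means of libraries with the same replicate number had a median correlation of -0.16 at 6 h and 0.23 at 5 d, over 0.1 in 7 and 14 of 24 pairs, so that not every pair deviated together and the numbers were not taken to pair the samples. Libraries of the same experiment batch had medians of 0.57 and 0.44, over 0.1 in 14 of 14 and 15 of 17 pairs. With the replicate block, 3 instead of 4 of the 10 genes were called between the times, since Id1 was 0.57 (adjusted p = 0.0505 from edgeR, Benjamini-Hochberg), and 3 instead of 1 of all genes for miR-92a-1-5p at 5 d. A filter of 10 counts in every library left out Smad6, and the batch could not enter the comparison of times. Depth limits Bmp4, Bmp5, and Smad6, whose lowest libraries held 4, 0, and 4 counts.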
